A study of Homo sapiens with 6 samples.

Results

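The annexins are a family of calcium-dependent, phospholipid-binding proteins, and 10 of their genes (ANXA1 to ANXA8, ANXA10 and ANXA11) were taken by gene symbol from the deposited count tables. All 10 were present among 28979 gene IDs, and 9 passed the filter on low counts. The libraries came from MDA-MB-231, an established human breast cancer line of mesenchymal character. There were 3 libraries labelled Con and 3 labelled Ang, none of which the labels tie to a separate culture, so the p-values below measure a spread between libraries that may be technical. The series design describes exposing these breast cancer cells to exosomes, small secreted vesicles, of normal and of hypertrophic cardiomyocytes, in a search for targets of microRNAs. The labels do not explain the names Con and Ang or their relation to that design, and give no dose or time, and all 6 libraries are of the same line with no listed allele or agent.

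An annexin protein carries a conserved core of repeated domains that grips acidic phospholipids such as phosphatidylserine when calcium rises, and a variable N-terminal tail that sets its partners. Several members are recruited to wounded plasma membrane and take part in its resealing, and others act in endocytosis, exocytosis and vesicle traffic. ANXA2 pairs with S100A10, ANXA1 with S100A11, and ANXA7 and ANXA11 with the calcium sensors sorcin and PDCD6. ANXA5 is used as a reagent for exposed phosphatidylserine and is a common component of secreted vesicles.

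Total counts per library ran from 3369212 to 5437190. In MDA-MB-231 the 6 genes listed as present in the line were found (VIM, CD44, AXL, MSN, CAV1 and KRT18, summing to 2003 to 2660 CPM, counts scaled to the library total after TMM normalisation, in Con and 2452 to 2607 CPM in Ang), while ESR1, PGR and CDH1 fell below the filter on low counts. The other 2 genes listed as absent or low passed it, with EPCAM, an epithelial marker, at 8.95 to 10.3 CPM and GATA3, a luminal marker, at 1.26 to 6.59 CPM. Of the markers of other cell types, 6 of 10 for cardiomyocytes were in the files, summing to 7.39 to 19.2 CPM in Con and 7.63 to 13.9 CPM in Ang. NPPA, the gene of an atrial natriuretic peptide, made up most of this sum, at 6.55, 8.28 and 17.3 CPM in Con and 6.46, 6.05 and 12.4 CPM in Ang, and was the only one of the 6 that was tested (log2 fold change -0.34 ± 0.40). Exons of other genes on the opposite strand cover 25.5% of the NPPA exon bases, 24.4% of VIM and 16.3% of KRT18. NPPB had 14 counts in Con and 5 in Ang, PLN 5 in Con and 9 in Ang, and TNNI3 9 in Con and 1 in Ang. MYH6, a cardiac myosin, and RYR2, a calcium release channel, had 1 count each over all libraries. Leukocyte markers summed to at most 2.02 CPM, endothelial markers to at most 19.1 CPM and fibroblast markers to at most 10.5 CPM in any library. Across 250 pairs of a non-coding gene and the coding gene whose exons lie over it on the other strand, the non-coding gene held more counts per base, with median ratios of 39.3, 23.2 and 41.1 in Con replicates 1 to 3, and 32.9 to 35.4 in the Ang libraries. Con replicate 2 thus stood apart from the rest. Genes free of annotated exons on the opposite strand held 21.7% of the counts in Con replicate 3, the lowest share, and 28.7% in Con replicate 2, the highest. The values below are counts of the named gene IDs and are uncertain as measures of the named genes' RNA. Gene positions are those of GENCODE release 29 on GRCh38, and all 10 members are annotated as protein coding.

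The start sites of the annexins with the highest and lowest counts per length are shown by 4 windows from RefSeq on GRCh38.p14. Each runs from 250 bases before to 50 bases after a transcription start and is written 5′ to 3′ on the gene's own strand. ANXA5, ANXA2 and ANXA1 had the highest levels per length and ANXA10 the lowest. Capitals mark matches on either strand to TATAAA (the TATA box), CCAAT (the CCAAT box), GGGCGG (the GC box) and TGANTCA (the AP-1 motif), and adjoining GC box matches in ANXA2 overlap each other.
ANXA5, chr4:121696931-121697230, minus strand: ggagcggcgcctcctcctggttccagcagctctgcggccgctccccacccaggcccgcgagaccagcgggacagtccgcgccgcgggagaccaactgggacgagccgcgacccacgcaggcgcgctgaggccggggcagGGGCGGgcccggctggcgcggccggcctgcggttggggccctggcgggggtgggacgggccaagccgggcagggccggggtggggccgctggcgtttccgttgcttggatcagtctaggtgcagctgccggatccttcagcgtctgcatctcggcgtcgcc
ANXA2, chr15:60397937-60398236, minus strand: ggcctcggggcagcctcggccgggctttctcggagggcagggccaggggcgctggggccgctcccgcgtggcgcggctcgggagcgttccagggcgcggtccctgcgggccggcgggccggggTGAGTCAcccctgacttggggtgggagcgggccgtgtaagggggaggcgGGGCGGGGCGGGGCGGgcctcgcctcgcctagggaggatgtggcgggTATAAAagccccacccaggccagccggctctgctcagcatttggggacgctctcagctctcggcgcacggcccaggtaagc
ANXA1, chr9:73151615-73151914, plus strand: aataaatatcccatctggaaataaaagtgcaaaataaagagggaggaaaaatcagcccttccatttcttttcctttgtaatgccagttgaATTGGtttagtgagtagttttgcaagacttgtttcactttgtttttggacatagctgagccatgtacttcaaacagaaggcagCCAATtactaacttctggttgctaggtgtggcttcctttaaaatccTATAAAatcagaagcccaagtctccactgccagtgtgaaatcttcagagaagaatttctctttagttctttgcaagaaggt
ANXA10, chr4:168092287-168092586, plus strand: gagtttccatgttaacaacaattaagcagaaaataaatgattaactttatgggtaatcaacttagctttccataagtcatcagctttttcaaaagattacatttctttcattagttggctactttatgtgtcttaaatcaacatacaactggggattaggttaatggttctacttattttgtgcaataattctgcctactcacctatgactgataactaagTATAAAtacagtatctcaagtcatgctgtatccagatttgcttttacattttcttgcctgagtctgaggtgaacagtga

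The ANXA5 and ANXA2 windows were rich in GC, at 76.3% and 76.0%, with 36 and 32 CpG dinucleotides. In contrast, the ANXA1 window held 37.7% GC and 0 CpG, and the ANXA10 window 32.7% GC and 0 CpG. The median over all 35116 windows of the table was 58.7% GC and 14 CpG. TATA box letters began at position -31 in ANXA2, -31 in ANXA1 and -29 in ANXA10, counted from the start, and were in 11.5% of all windows. A GC box was in 44.95% of all windows, a CCAAT box in 34.6% and an AP-1 motif in 7.71%. The AP-1 letters of ANXA2, at -127, were the only such match among the 13 windows listed for 9 of the members. ANXA1 and ANXA10 thus shared base composition and TATA letters while their gene IDs lay at opposite ends of the range of counts per length. The matches describe letters only, and ANXA8 had no entry in the table.

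Counts per length differed widely among the gene IDs of the family. Given the strand ratios above, their order is uncertain as an order of RNA abundance. Levels between genes were compared as RPKM, the CPM per kilobase of merged exons, over all 6 libraries (mean ± SD, n = 6). ANXA5 had the highest level per length at 80.4 ± 9.73 RPKM, followed by ANXA2 at 56.3 ± 7.10 and ANXA1 at 47.3 ± 3.71 RPKM. These 3 genes together with ANXA6 (20.7 ± 2.52 RPKM) were ranked in this order in all 6 libraries. ANXA7 (16.7 ± 2.17 RPKM) and ANXA3 (16.6 ± 1.96 RPKM) did not differ beyond their spread, as ANXA7 was the higher of them in 4 of 6 libraries, and ANXA6 lay above ANXA7 in 5 of 6. Below them came ANXA11 at 7.92 ± 1.16, ANXA8 at 4.25 ± 0.968 and ANXA4 at 1.42 ± 0.454 RPKM, each in the same place in all 6 libraries. ANXA10 was last at 0.200 ± 0.222 RPKM.

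The upper order depended on the length used. With the longest annotated transcript in place of merged exons, ANXA2 (141 ± 17.8 RPKM) and ANXA5 (139 ± 16.8 RPKM) did not differ beyond their spread, with ANXA2 above ANXA5 in 3 of 6 libraries. ANXA8 (9.69 ± 2.21) and ANXA11 (9.67 ± 1.42 RPKM) were then level as well, again with 3 of 6 libraries each way, and ANXA3 lay above ANXA7 in all 6. The merged exons of ANXA2 span 8824 bases and its longest transcript 3528, against 3034 and 1762 for ANXA5. Both lengths placed ANXA5, ANXA2 and ANXA1 as the top 3 and ANXA4 and ANXA10 as the last 2. On the merged-exon scale ANXA5 made up 30.0% to 33.8% of the summed RPKM of the 10 genes in a library, ANXA2 20.4% to 24.3% and ANXA1 17.1% to 19.7%.

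**Figure D1:**
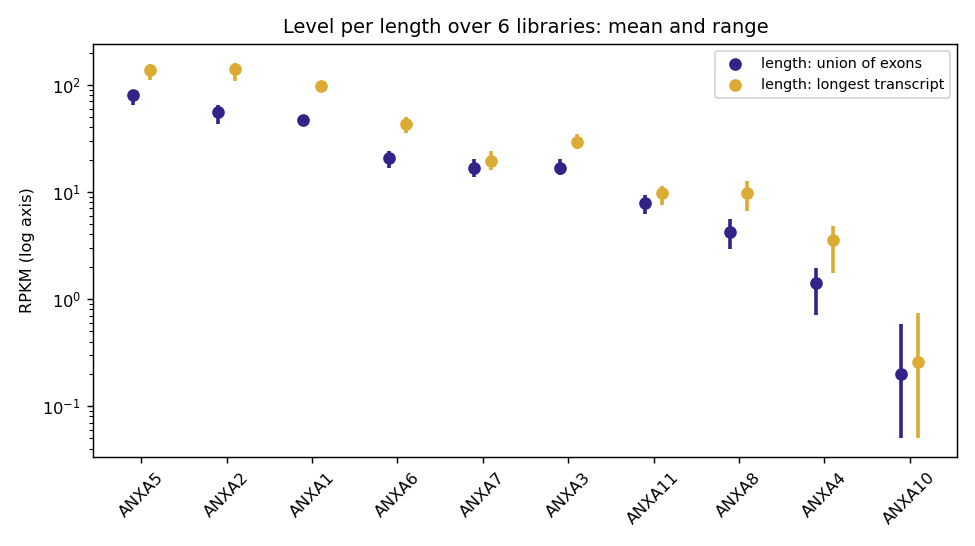
Level per length of the 10 annexins, with RPKM on a log axis. Points are means over the 6 libraries and lines run from the lowest to the highest library, for lengths from merged exons (dark) and from the longest transcript (yellow); the lines of ANXA10, which had 0 counts in 2 libraries, end at the bottom at 0.05 RPKM. ANXA5, ANXA2 and ANXA1 lie highest with either length.

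Between Ang and Con, no annexin passed the threshold. With edgeR (quasi-likelihood test, Benjamini-Hochberg adjustment) over 14547 tested genes, the calls were 0 of the 9 tested members, beside 0 genes, or 0%, over all tested genes. At an unadjusted p under 0.05 it counted 0 of 9 members, against 3.4% of all tested genes. DESeq2 and limma-voom likewise called 0 members, with 0 at an unadjusted p under 0.05. Each tested member had an adjusted p of 0.999. The log2 fold change, Ang minus Con, was above 0 for 6 members and below 0 for 3, with a median of 0.14, against 49.2% of all genes above 0 and a median of -0.01. Among the 3408 genes of at least 50 CPM, 55.5% were above 0, with a median of 0.02.

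ANXA1, a substrate of receptor tyrosine kinases whose secreted form damps inflammation through formyl peptide receptors, lies on chromosome 9 (73151757 to 73170393, plus strand, ENSG00000135046). It had 213, 207 and 190 CPM in Con replicates 1 to 3 and 237, 232 and 216 CPM in Ang replicates 1 to 3. All 3 Ang libraries were above all 3 Con libraries, which held for 3.62% of all tested genes. The distance between the groups was small, with 203 ± 11.7 CPM in Con and 228 ± 10.97 CPM in Ang (SD, n = 3 each). Its log2 fold change was 0.17 ± 0.17 (SE), not past the threshold. Its 95% interval ran from a fold of 0.886 to 1.42.

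ANXA2, a cell-surface and endosomal member that with S100A10 docks plasminogen and its activators, lies on chromosome 15 (60347134 to 60402883, minus strand, ENSG00000182718). Its CPM values were 500, 567 and 380 in the Con libraries and 497, 524 and 511 in the Ang libraries. The Ang values lay inside the Con range, with the highest value in Con replicate 2 and the lowest in Con replicate 3. Con libraries averaged 482 ± 94.9 CPM and Ang libraries 511 ± 13.8 CPM, a log2 fold change of 0.08 ± 0.17. Without Con replicate 3 the value was -0.07 ± 0.15, so its sign rested on that library. Without Con replicate 2 it was 0.21 ± 0.11.

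ANXA5, the phosphatidylserine-binding member used to stain dying cells, lies on chromosome 4 (121667955 to 121697113, minus strand, ENSG00000164111). It had 245, 255 and 198 CPM in Con and 273, 271 and 222 CPM in Ang. Replicate 3 was the lowest library of each group and the groups overlapped. The log2 fold change of ANXA5 was 0.14 ± 0.17, with an interval from a fold of 0.868 to 1.391, and 0.21 ± 0.12 without Con replicate 2.

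ANXA6, a member with a doubled core that acts in membrane repair and cholesterol traffic, lies on chromosome 5 (151100712 to 151157882, minus strand, ENSG00000197043). It had 102, 117 and 91.2 CPM in Con against 118, 130 and 116 CPM in Ang. Only Con replicate 2 reached the Ang range, and by less than 1 CPM over Ang replicate 3. The means were 103 ± 12.8 and 121 ± 7.91 CPM, and the log2 fold change of 0.23 ± 0.18 was the highest among the members. Leaving out Con replicate 2 gave 0.33 ± 0.15 with an unadjusted p of 0.0302 and an adjusted p of 0.375 by edgeR. In that fit 11% of all genes had an unadjusted p under 0.05, 49.6% were above 0 and 0.269% were called, with 0 annexins among them. Without Con replicate 1, 0 annexins were called beside 0.00668% of all genes.

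ANXA11, which tethers RNA granules to lysosomes and binds PDCD6, lies on chromosome 10 (80150889 to 80205572, minus strand, ENSG00000122359). The Con libraries gave 52.4, 78.9 and 60.4 CPM and the Ang libraries 71.9, 75.1 and 65.6 CPM. Its values ranged most widely within Con, whose replicate 2 exceeded each Ang library. On the log2 scale the fold change was 0.15 ± 0.19. Without Con replicate 1 it was 0.01 ± 0.22, and without Con replicate 2 it was 0.34 ± 0.18.

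ANXA8, a member of epithelia and late endosomes, lies on chromosome 10 (47460162 to 47484158, minus strand, ENSG00000265190). It had 14.4, 27.6 and 17.3 CPM in Con and 21.7, 24.7 and 20.8 CPM in Ang, so the groups overlapped through Con replicate 2 alone. The log2 fold change was 0.17 ± 0.28, and it was 0.51 ± 0.30 without Con replicate 2 and -0.02 ± 0.30 without Con replicate 1. ANXA8L1 is a near-identical copy on chromosome 10 (46375627 to 46391784), and how the counting shared reads between the copies is not given in the sources used here. ANXA8L1 had 6.34, 8.28 and 6.29 CPM in Con and 4.11, 6.30 and 3.76 CPM in Ang, with a log2 fold change of -0.56 ± 0.50. The ratio of ANXA8 to ANXA8L1 counts was 2.27, 3.33 and 2.75 in Con and 5.29, 3.92 and 5.54 in Ang, so the groups did not overlap. It rested on as few as 13 counts of ANXA8L1 in a library and was 1 of 9 ratios looked at.

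**Figure D2:**
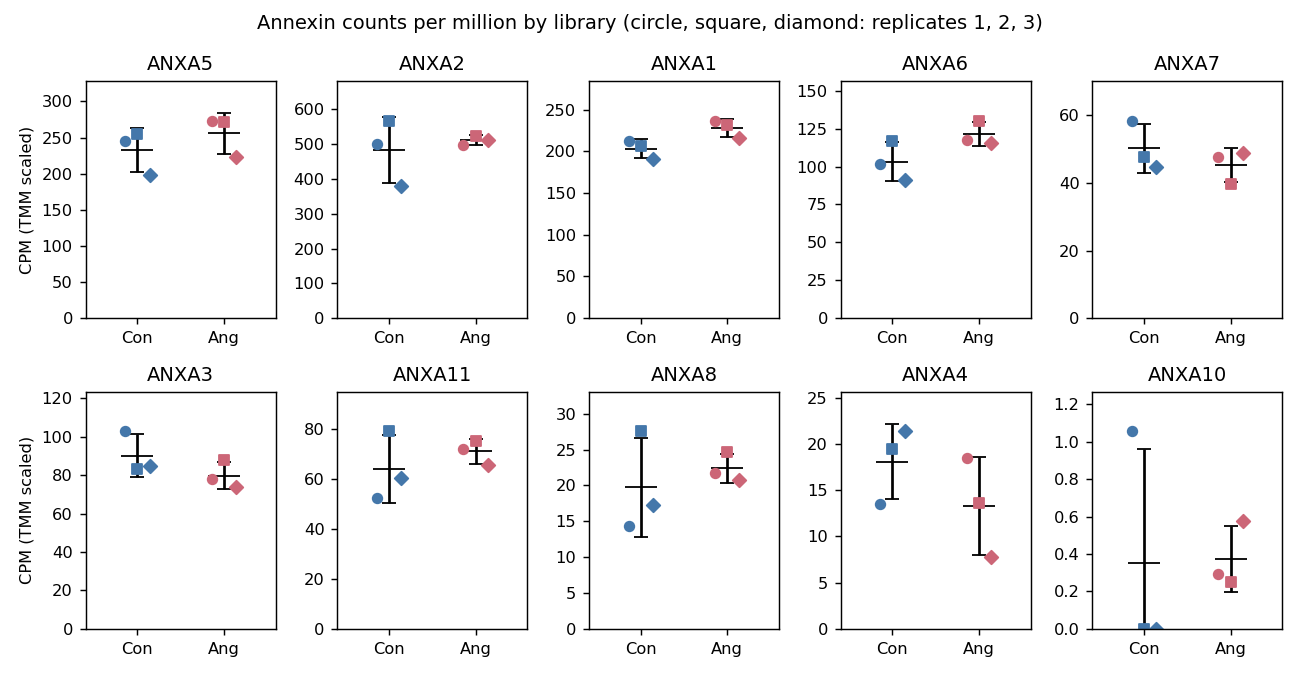
CPM of each annexin in every library, ordered by level per length, with the y axis starting at 0. Circles, squares and diamonds are replicates 1, 2 and 3 of Con (blue) and Ang (red), and bars give the mean ± SD; only for ANXA1 do all Ang libraries lie above all Con libraries.

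Of the members with lower values in Ang, ANXA3, a member linked to neutrophil granules, lies on chromosome 4 (78551519 to 78610451, plus strand, ENSG00000138772). It had 103, 83.0 and 84.6 CPM in Con and 77.8, 87.7 and 73.9 CPM in Ang, overlapping through Ang replicate 2. Its log2 fold change was -0.18 ± 0.18, and -0.23 ± 0.16 without Con replicate 2. ANXA3 was also set against ANXA6 within each library. The level of ANXA6 over ANXA3, per length, was 0.936, 1.33 and 1.02 in Con and 1.43, 1.40 and 1.48 in Ang. The groups did not overlap in this ratio, which was chosen after the values were seen, as a pair whose fold changes had opposite signs. Other member pairs of opposite sign that were looked at did overlap. ANXA2 over ANXA3 was 2.61 to 3.97 in Con and 3.47 to 4.01 in Ang, and ANXA6 over ANXA7 and ANXA7 over ANXA11 overlapped too. For 3 against 3 libraries an exact two-sided permutation test cannot go below 0.10.

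ANXA7, or synexin, a calcium-activated GTP-binding member, lies on chromosome 10 (73375101 to 73414076, minus strand, ENSG00000138279). Con gave 58.5, 47.8 and 44.7 CPM and Ang 47.8, 39.6 and 48.8 CPM, with overlapping groups and a log2 fold change of -0.15 ± 0.21. Without Con replicate 2 the value was -0.19 ± 0.21. ANXA7 was the only member with annotated exons of another gene on the other strand, over 3.67% of its exon bases. That gene, ENSG00000233144, is an antisense gene on chromosome 10 (73381433 to 73383496) with 401 exon bases, of which 26.2% lie under an ANXA7 exon and the rest within the bounds of the ANXA7 gene. It had 387, 274 and 340 CPM in Con and 339, 300 and 340 CPM in Ang. Each library held 5.73 to 7.61 counts of it per count of ANXA7, and 40.9 to 54.3 times as many counts per exon base. The lowest of these ratios per base was in Con replicate 2 and the highest in Con replicate 3, the same libraries that had the lowest and highest strand ratio over the 250 pairs. The other libraries did not follow that order, with 54.1 in Ang replicate 2 (strand ratio 32.9) and 47.3 in Con replicate 1 (strand ratio 39.3). For the other 9 members no gene annotated on the other strand shares exon bases, so their opposite strand could not be examined.

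ANXA4, an epithelial member of apical membrane traffic, lies on chromosome 2 (69644425 to 69827100, plus strand, ENSG00000196975). It had 13.5, 19.4 and 21.4 CPM in Con and 18.5, 13.6 and 7.80 CPM in Ang. The range was the widest of the 9 tested members, with Con replicate 3 at 2.74 times Ang replicate 3, and the groups overlapped. The log2 fold change of -0.44 ± 0.32 was the lowest of the members, and without Ang replicate 3 it was -0.17 ± 0.36. Without Con replicate 2 it was -0.37 ± 0.35. Between 27 and 115 counts per library stood behind these values, and the interval ran from a fold of 0.475 to 1.14.

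ANXA10, a member typical of gastric mucosa that lacks most calcium-binding residues, lies on chromosome 4 (168092515 to 168187690, plus strand, ENSG00000109511). Its counts were 5, 0 and 0 in Con and 1, 1 and 2 in Ang, below the filter and not tested. The depth-scaled ratio, Ang over Con, was 0.986 with an exact (Clopper-Pearson) 95% interval of 0.196 to 4.58, which covers counting error only. A count of 0 allows up to 3 counts, or 0.552 to 0.890 CPM in these libraries, so ANXA10 was at the limit of detection.

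**Figure D3:**
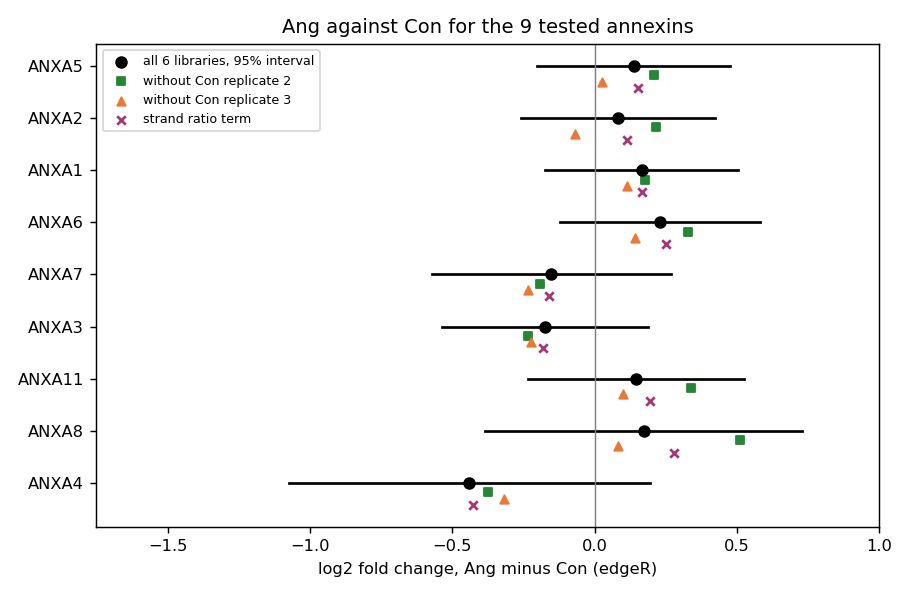
Log2 fold change, Ang minus Con, of the 9 tested annexins from edgeR. Black points and lines are the estimate and 95% interval from all 6 libraries, and coloured marks the estimates without Con replicate 2, without Con replicate 3 and with a strand ratio term; each interval includes 0.

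In the fit, precision was not limited by counting for the abundant members. In the lowest library, counting error alone was 2.88% for ANXA2, 3.99% for ANXA5 and 4.07% for ANXA1. The fitted variation between libraries was 14.2%, 14.3% and 14.3%. These fitted values are moderated by edgeR over all genes, and were 14.1% for AHNAK, F3 and VIM. They are not each member's own spread, which for ANXA1 was an SD of 11.7 CPM around 203 in Con and 10.97 around 228 in Ang. For ANXA4 the counting error reached 19.2% beside a fitted variation of 24.4%, and for ANXA8 13.5% beside 21.9%. The 95% intervals lay within 2-fold in both directions for 8 of the 9 tested members, all but ANXA4. The same held for 3406 of all 3408 genes of at least 50 CPM, so it is not particular to annexins.

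Across libraries the members did not move as a block. Con replicate 3 had the lowest value for 4 of 9 members and lay below the member's own mean for 7, with a median deviation of -0.18 on the log2 scale. Con replicate 2 had the highest value for 3 members and was above the mean for 7, with a median deviation of 0.07. Ang replicates 1 and 2 were above the mean for 8 and 7 members. Con replicate 3 had the highest strand ratio (41.1) and Con replicate 2 the lowest (23.2), and their part in these levels was not tested beyond a fit with a strand ratio term. In that fit the 9 signs were unchanged, 0 members were called, beside 0.0275% of all genes, and the ANXA6 value was 0.25 ± 0.13 with an adjusted p of 0.770 by edgeR. The SE was smaller than in the main fit, at 0.09 for ANXA2 and 0.10 for ANXA1 and ANXA5, against 0.17 for each. Over all tested genes, 941 had an unadjusted p under 0.05 by edgeR, against 494 in the main fit.

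**Figure D4:**
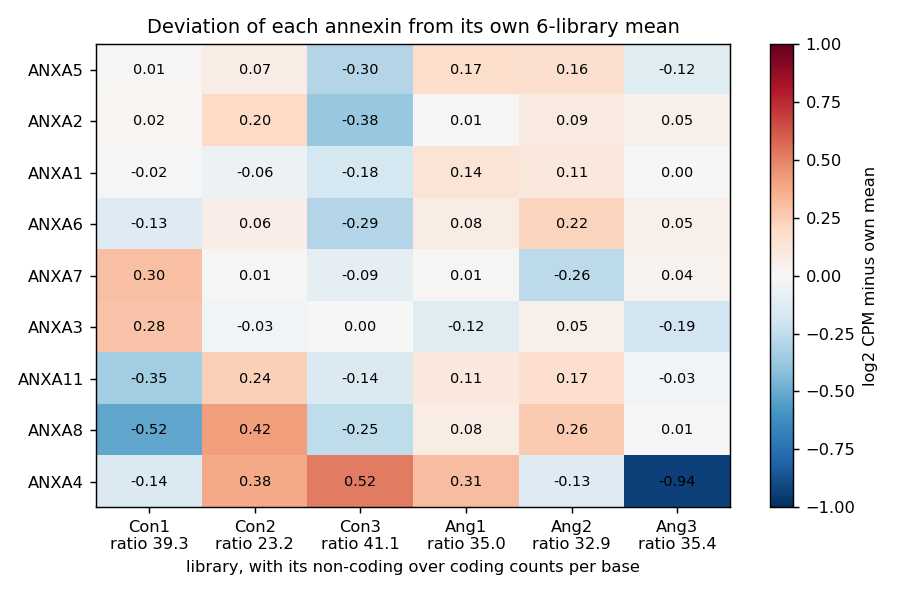
Log2 CPM of each tested annexin in each library minus its own mean over the 6 libraries, with the library's non-coding over coding ratio under its name. Con3 is low for ANXA2, ANXA5, ANXA6 and ANXA1 and high for ANXA4, and Ang3 is the lowest library for ANXA4 and ANXA3.

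The genes whose profile over the 6 libraries was most like that of ANXA5, the tested annexin of highest level per length, were ASAP2 (Pearson r of log2 CPM 0.98), MKLN1 (0.98) and SLC25A5 (0.96), among 3407 genes of at least 50 CPM. The correlation with ANXA5 was 0.86 for ANXA1, 0.80 for ANXA6, 0.76 for ANXA2, 0.52 for ANXA11 and 0.09 for ANXA3. ANXA4, ANXA7 and ANXA8 were below 50 CPM. Exons on the other strand cover 30.4% of the ASAP2 exon bases, 21.4% of MKLN1 and 15.1% of SLC25A5. These values rest on 6 libraries, the genes of a library share its depth and scaling factor, and no test is attached.

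Other annexins and annexin-derived loci were few. ANXA9, a member that lacks calcium-binding residues, lies on chromosome 1 (150982017 to 150995634). It had 72.2, 60.2 and 81.8 CPM in Con and 66.3, 55.0 and 61.8 CPM in Ang, with a log2 fold change of -0.22 ± 0.19. The processed pseudogenes of ANXA2 held little, with 18 counts for ANXA2P2 and 6 for ANXA2P1 over all libraries, against 12475 for ANXA2. Reads that ANXA2 shares with them may have been left out or split. ANXA2R, a proposed receptor of ANXA2, had 7 counts. The noncoding neighbours of ANXA2R gave log2 fold changes of -0.48 ± 0.58 for ANXA2R-AS1 and -0.05 ± 0.36 for ANXA2R-OT1. Both signs rested on the setting, with 0.02 ± 0.66 for ANXA2R-AS1 by limma-voom and 0.27 ± 0.42 for ANXA2R-OT1 without Con replicate 1.

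Of the direct partners, 10 of 11 listed genes were in the files, 9 were tested and 0 were called. S100A10, the ANXA2 ligand that holds it at the membrane, had 208, 277 and 211 CPM in Con and 281, 252 and 260 CPM in Ang (log2 fold change 0.19 ± 0.17). ANXA2 over S100A10, per length, was 0.315 to 0.420 in Con and 0.309 to 0.363 in Ang, so the ratio of the pair overlapped between groups. S100A11, which binds the tails of ANXA1 and ANXA6, had a log2 fold change of 0.27 ± 0.19. ANXA1 over S100A11, per length, was 0.329 to 0.527 in Con and 0.339 to 0.439 in Ang, again overlapping. S100A4, a metastasis-linked calcium sensor that binds ANXA2, had 35.7, 38.5 and 23.6 CPM in Con and 51.3, 42.1 and 47.4 CPM in Ang. All 3 Ang libraries of S100A4 were above all 3 Con libraries, as for 3.62% of tested genes. Its log2 fold change was 0.51 ± 0.23 with an unadjusted p of 0.0252 and an adjusted p of 0.999 by edgeR. VPS4A, the ATPase that takes ESCRT complexes apart, had 160, 143 and 201 CPM in Con and 131, 137 and 140 CPM in Ang, all Ang libraries below all Con libraries, as for 4.54% of tested genes (-0.30 ± 0.18). Exons on the other strand cover 21.96% of the VPS4A exon bases. Over this list 7 of 9 values were above 0, with a median of 0.12, and AHNAK, a giant scaffold bound by the ANXA2 complex, was at 0.03 ± 0.18 and S100A6 at 0.17 ± 0.17. Without Con replicate 2 the values were 0.34 ± 0.12 for S100A10, 0.51 ± 0.17 for S100A11, 0.33 ± 0.11 for S100A6 and 0.11 ± 0.10 for AHNAK. In that fit S100A4 was at 0.65 ± 0.23 and VPS4A at -0.40 ± 0.13, and none of these genes was called. In that fit, also given for the lists below, 11% of all genes had an edgeR unadjusted p under 0.05, against 3.4% with all libraries. With the strand ratio term the values were 0.22 ± 0.10 for S100A10, 0.34 ± 0.15 for S100A11 and 0.21 ± 0.09 for S100A6. That fit gave 0.05 ± 0.07 for AHNAK, 0.55 ± 0.20 for S100A4 and -0.31 ± 0.11 for VPS4A, again with none called.

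Receptors and proteases that meet annexins at the cell surface gave 0 calls among 6 tested of 10 listed, with 4 values above 0 and a median of 0.08. FPR2, a receptor of secreted ANXA1, had 1 count over all libraries, and FPR1 and FPR3 were not matched in the files. The plasminogen activators that act on the ANXA2 complex were abundant, with log2 fold changes of 0.08 ± 0.17 for PLAT and 0.19 ± 0.17 for PLAU. PLAUR, the surface receptor of PLAU, was at 0.29 ± 0.24. Of the PLAU exon bases, 31.1% lie under exons on the other strand. F3, or tissue factor, whose coagulation activity ANXA5 masks, was at 0.08 ± 0.17. TLR2, an innate receptor, was at -0.31 ± 0.30 and PROCR, the protein C receptor, at -0.24 ± 0.36. Without Con replicate 2 the values were 0.68 ± 0.25 for PLAUR, 0.39 ± 0.12 for PLAU, 0.30 ± 0.12 for PLAT and 0.15 ± 0.10 for F3. In that fit TLR2 was at -0.35 ± 0.32 and PROCR changed sign to 0.02 ± 0.40, and none of these genes was called. With the strand ratio term the values were 0.41 ± 0.22 for PLAUR, 0.24 ± 0.10 for PLAU, 0.14 ± 0.10 for PLAT and 0.09 ± 0.08 for F3. That fit gave -0.32 ± 0.28 for TLR2 and -0.17 ± 0.34 for PROCR, with none called.

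The membrane repair list, which holds ferlins, calpains, EHD proteins, ESCRT parts and caveolar genes, had 15 tested of 18 listed genes and 0 calls. Here 12 values were above 0 and 3 below, with a median of 0.13. SMPD1, acid sphingomyelinase, had the highest log2 fold change at 0.56 ± 0.40. EHD1, a membrane-shaping ATPase, was at 0.31 ± 0.25, and CAPNS1, the small calpain subunit, at 0.26 ± 0.19. CAPN2, a calpain that cleaves annexins at wounds, was at 0.13 ± 0.17, MYOF, a ferlin, at 0.06 ± 0.17 and CAV1, the caveolar coat gene, at 0.21 ± 0.17. Leaving out Con replicate 2 gave 1.12 ± 0.48 for SMPD1, 0.71 ± 0.26 for EHD1, 0.35 ± 0.13 for CAV1, 0.25 ± 0.11 for CAPN2 and 0.16 ± 0.12 for MYOF, with 0 calls in the list. The strand ratio term gave 0.77 ± 0.40 for SMPD1, 0.44 ± 0.22 for EHD1 and 0.24 ± 0.11 for CAV1. CAPN2 was then at 0.16 ± 0.08 and MYOF at 0.08 ± 0.10, again with 0 calls.

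Scramblases and flippases set how much phosphatidylserine, the ligand of ANXA5, faces outward. Of 10 listed genes 9 were tested and 0 called, with 3 values above 0, 6 below and a median of -0.04. ATP8B1, a flippase, had 25.8, 24.2 and 23.9 CPM in Con and 19.7, 19.9 and 19.4 CPM in Ang. All its Ang libraries were below all its Con libraries, as for 4.54% of tested genes (-0.33 ± 0.28). ATP11A, a flippase of the plasma membrane, was at -0.42 ± 0.29. Without Con replicate 2 the values were -0.34 ± 0.28 for ATP8B1 and -0.46 ± 0.29 for ATP11A. With the strand ratio term the values were -0.33 ± 0.25 for ATP8B1 and -0.43 ± 0.26 for ATP11A. TMEM30A, the subunit they share, was at -0.04 ± 0.18 (-0.12 ± 0.16 without Con replicate 2), ANO6, a calcium-activated scramblase, at 0.05 ± 0.19 and PLSCR4 at -0.35 ± 0.64.

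Copines are another family of calcium-dependent phospholipid binders, built on C2 domains. Among 6 tested of 8 listed copines 0 were called, with 5 values above 0 and a median of 0.28. CPNE1 had 31.3, 55.4 and 29.9 CPM in Con and 57.5, 55.0 and 47.4 CPM in Ang, overlapping through Con replicate 2. Its log2 fold change of 0.44 ± 0.22 had an unadjusted p of 0.0439 and an adjusted p of 0.999 by edgeR. Without Con replicate 2 the CPNE1 value was 0.80 ± 0.22 with an adjusted p of 0.0778 by edgeR, and that of CPNE7 was 0.96 ± 0.80. With the strand ratio term CPNE1 was at 0.56 ± 0.19 with an adjusted p of 0.521 by edgeR, and CPNE7 at 0.61 ± 0.67. CPNE2 had 8.66, 8.79 and 10.1 CPM in Con and 12.9, 12.6 and 13.3 CPM in Ang, with a log2 fold change of 0.50 ± 0.37. Its Ang libraries were all above its Con libraries, as for 3.62% of tested genes. CPNE3, the most abundant copine, was at 0.06 ± 0.18 (0.11 ± 0.16 without Con replicate 2), CPNE7 at 0.43 ± 0.64 and CPNE5 at -0.41 ± 0.63.

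**Figure D5:**
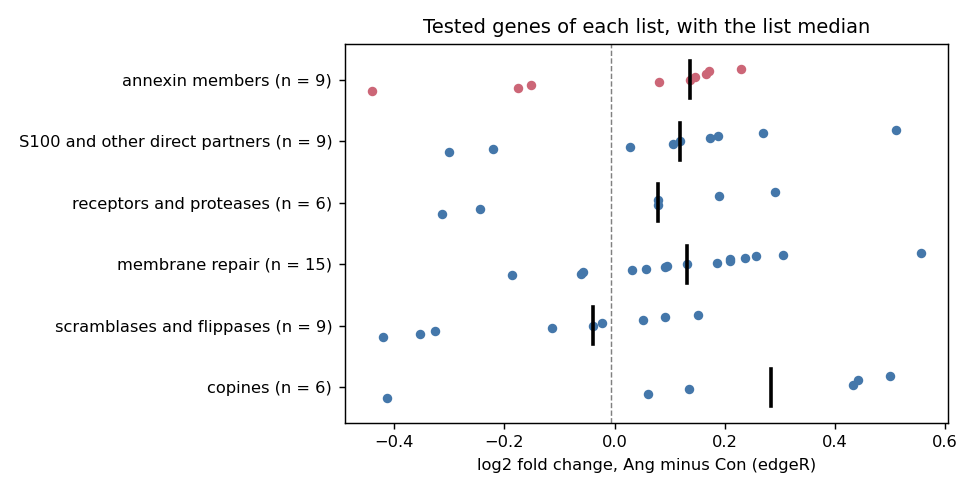
Log2 fold change, Ang minus Con, of each tested gene (points) in the annexins (red) and in 5 related lists (blue), with a black bar at each list median and a dashed line at the median of all tested genes. The annexins span -0.44 to 0.23, and no gene shown passed the threshold.

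Since the design names microRNA targets as the aim, the 3′ untranslated regions of the annexins (for each, the longest in the annotation) were scanned for seed sites of 10 microRNAs known from heart, vesicles or annexin studies. Sites were found for 7 of the 10 microRNAs and in 6 of the 10 annexins. The seed of miR-1-3p, a microRNA of heart and skeletal muscle, had sites in 4 annexins, and 12.02% of 19054 genes with such a region held one. That share takes no account of length. The regions of ANXA11 (4964 bases) and ANXA4 (1585) are longer than the median of 1109.5, and those of ANXA1 (286) and ANXA2 (496) shorter. The miR-1-3p sites are shown because no other microRNA of the 10 matched more than 2 members, and enrichment was not tested. The mature sequence from RefSeq has its seed, bases 2 to 8, in capitals, and the sites from GENCODE transcripts on GRCh38 have the match in capitals.
hsa-miR-1-3p: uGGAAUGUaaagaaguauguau
ANXA1, chr9:73170108-73170116, plus strand: ACATTCCct
ANXA2, chr15:60347424-60347440, minus strand: agaaatgaACATTCCaa
ANXA4, chr2:69826198-69826214, plus strand: aatgctgaACATTCCat
ANXA11, chr10:80154242-80154258, minus strand: atggtggcACATTCCtg

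The ANXA2 and ANXA4 sites are followed by an A, the 8mer form. The site of ANXA1 begins at base 1 after the stop codon, and that of ANXA11 lies at base 1603 of 4964. Log2 fold changes of these 4 genes, given above, were 0.17, 0.08, -0.44 and 0.15, and 0 passed the threshold. The seed of miR-21-5p matched ANXA1 and ANXA4, and that of miR-29a-3p matched ANXA2 and ANXA5, beside 8.75% and 14.4% of all genes. ANXA4 also held a site of miR-499a-5p, ANXA7 a site of miR-196a-5p, ANXA2 a site of miR-155-5p and ANXA11 a site of miR-30a-5p. For miR-133a-3p, miR-208a-3p and miR-22-3p these letters were in none of the 10 regions. A match is a description of letters and shows no binding.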

How the data were processed

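Messenger RNA of 6 MDA-MB-231 libraries was sequenced after poly-T selection, random priming and 15 PCR cycles, per the labels' protocols. The authors deposited raw read counts (whole numbers) for Ensembl gene IDs. HTSeq 0.9.1, DESeq 1.39.0 and build GRCh38 are named, per the submitters' processing notes. Aligner, annotation release and the counter's strand setting: not given in the sources used here. Symbols were matched for 28918 of 28979 IDs, and 28192 were found in GENCODE release 29 on GRCh38, which gave positions and lengths. No library pair was identical. The chi-square per gene was 6.79 to 12.8 for pairs of Con libraries and 3.60 to 3.92 for pairs of Ang libraries.

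The tests used edgeR 4.0.16 (R 4.3.3, filterByExpr, TMM scaling, robust quasi-likelihood test, no replicate term, adjusted p threshold 0.05). CPM values are TMM scaled, errors are SD over 3 libraries for CPM and SE for log2 fold changes. DESeq2 1.42.0 and limma-voom (limma 3.58.1), other scaling and filters, a replicate block, a strand ratio term and leaving out each library were run as alternatives. Strand pairs were formed with bedtools 2.31.1 from non-coding genes with at least 90% of exon bases under a coding gene of at least 300 counts. On simulated counts for this comparison (14547 genes, 3 runs), the test called 49.3% of 2-fold changes, and 95.9% at 50 CPM or more. The simulation gave a gene the same dispersion in both groups, though Con libraries varied more than Ang libraries. PCR reads are not independent molecules.

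The members, lists and the named genes (all members, and in each list the 4 smallest p and the 2 highest CPM) were chosen with earlier results of these data known. A gene of the lists that the rule names is not reported here. Promoter and microRNA sequences came from RefSeq (GRCh38.p14), with promoters for 9 of 10 members. Protein sequences were not used here.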

Additional observations from a re-analysis of the deposited data

How the results depend on the processing

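Under 13 alternatives 0 annexins passed the threshold, and the smallest adjusted p of a member was 0.375 (ANXA6 without Con replicate 2). Of 117 alternative values of the tested members, 115 kept their sign and 2 changed it without a call, ANXA2 without Con replicate 3 and ANXA8 without Con replicate 1. RLE scaling, both other filters, DESeq2, limma-voom, the replicate block and the strand ratio term kept all 9 signs. Genes called over the whole table numbered 0 with all 6 libraries, 4 with the strand ratio term and 0 to 40 when a library was left out (40 for Con replicate 2, 1 for Con replicate 1, 0 for each of the others). The cause was not tested. Among the partner lists 0 genes were called in any setting run. With the replicate block, 0 genes and 0 annexins were called. Same-numbered libraries had correlations of deviations of 0.037, 0.068 and 0.036, each above those of different-numbered libraries (-0.070 to 0.030). No label says that the numbers pair libraries, so the main fit had no replicate term, and pairing was not tested further. Of 9 neighbouring pairs in the order of levels, 7 held in all 6 libraries with merged exons and with the longest transcript, though partly different pairs, and 7 on raw library totals. At this depth ANXA10 was too low to test.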
